A study of Mus musculus with 4 samples.

Results

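Chromosome 13 of mouse mesenchymal stem cells carried 1267 H4K20me1 regions in a mixed culture, the MSC21 population, and 284 in 4L.1.4, a clone derived from it. H4K20me1 is histone H4 with 1 methyl group on lysine 20. The members described here are all regions of chromosome 13 in the 2 deposited lists, out of 28166 population and 11809 clone regions on all chromosomes, in mm9 coordinates. Both cultures came from bone marrow of C57BL/6 mice, were grown to confluence, fixed and sonicated, and were immunoprecipitated with the same H4K20me1 antibody or with non-immune rabbit serum. Each of the 4 groups had 1 library, and the clone group is a single clone. The lists hold positions only, so the sequencing depth and the signal behind a region are unknown, and where a list has no region the mark may still be present uncalled. The chromosome was chosen because the clone supplied a smaller share of its regions than of any other chromosome's. All values comparing the cultures are therefore descriptions of these libraries, with no test and no replicate error.

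H4K20me1 is placed by the enzyme SETD8 (PR-Set7), and SUV420H enzymes can carry it on to the dimethyl and trimethyl forms. It is known from the bodies of transcribed genes, where it often forms broad domains, and from the inactive X chromosome. Its level changes through the cell cycle, with most of the mark added around mitosis. Genes were not assigned to the regions, since the gene table at hand describes another build (GRCm38.p6), and no sequence is printed for the same reason.

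The population marked chromosome 13 about as densely as other autosomes, while the clone marked it sparsely. Population regions covered 6.37 Mb, or 54.5 kb per Mb between the first and last region, which ranked 10 of 19 autosomes. Clone regions covered 1.57 Mb, or 13.4 kb per Mb, the lowest of the 19 autosomes, where the other 18 ranged from 15.4 to 54.97 kb per Mb. The population thus covered 4.06 times as many base pairs as the clone, against 1.77 times over the 18 other autosomes together. The highest ratio among those 18 was 2.62, on chromosome 3. A low clone density and a high ratio were likely beforehand, since the rule chose the chromosome with the smallest clone share of regions. Nothing is read from either. Sequence marked in both lists came to 1.40 Mb, which was 21.9% of the population sequence and 89.2% of the clone sequence. Of the union of 6.54 Mb, 4.97 Mb was marked in the population alone and 169.4 kb in the clone alone.

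Few population regions had a clone counterpart, and most clone regions had a population one. Of the 1267 population regions 189 shared at least 1 bp with a clone region (14.9%, exact Clopper-Pearson 95% interval 13 to 17%), where the share was 33.7% over all chromosomes and 35.1% over the 18 other autosomes. Of the 284 clone regions 260 met population sequence (91.5%, 87.7 to 94.5%), where the share was 84.8% over all chromosomes and 84.6% over the 18 other autosomes. Intervals reflect counting error alone, as if regions were independent, although they cluster. The rule that chose the chromosome rests on the same lists, so nothing is read from these shares against the others.

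The width profiles of the lists on chromosome 13 lay closer together than elsewhere. Population regions had a median width of 2375 bp (quartiles 1492.5 and 5211 bp), and clone regions one of 3325 bp (1915.25 and 6489 bp). Over the other autosomes the medians were 2125 and 3712 bp. Narrow population regions were scarcer on chromosome 13, with 323 (25.5%) under 1500 bp against 34.3% elsewhere, a share that ranked 4 from the lowest of 19. Narrow clone regions were more frequent, with 79 (27.8%) between 1000 and 2000 bp and none below, the highest share under 2000 bp of the 19 autosomes, where the others ranged from 6.38 to 24.7%. On the X chromosome the share between 1000 and 2000 bp was 29.7%, above that of chromosome 13. Broad regions carried much of the marked sequence: the 150 population regions of at least 10 kb held 48.5% of the population's base pairs, and the 41 such clone regions held 45.2% of the clone's. At least 50 kb was reached by 7 population regions and by 0 clone regions. The larger clone median depended on the setting. With neighbours joined within 10000 bp the population median was 8616 bp and the clone median 6729.5 bp, and with the population list limited to its widest regions they were 5739 and 3325 bp.

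Spacing told the lists apart more than width did. Population regions were separated by a median gap of 3.02 kb on chromosome 13 and 2.99 kb on the other autosomes, and 64.8% and 65.7% of the gaps were at most 10 kb. Clone regions had a median gap of 10.9 kb on chromosome 13 and 8.32 kb elsewhere. The upper quartile of the clone gaps was 386.1 kb on chromosome 13, against 91.8 kb over the other autosomes together. It was at most 206.2 kb on any single one of them and 295.6 kb on the X chromosome. Few clone regions make wide gaps likely, and the chromosome was chosen for its small clone share, so nothing is read from this difference. On chromosome 13, gaps over 1 Mb numbered 27 in the population and 37 in the clone, and the latter made up 84.3 Mb.

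**Figure D1:**
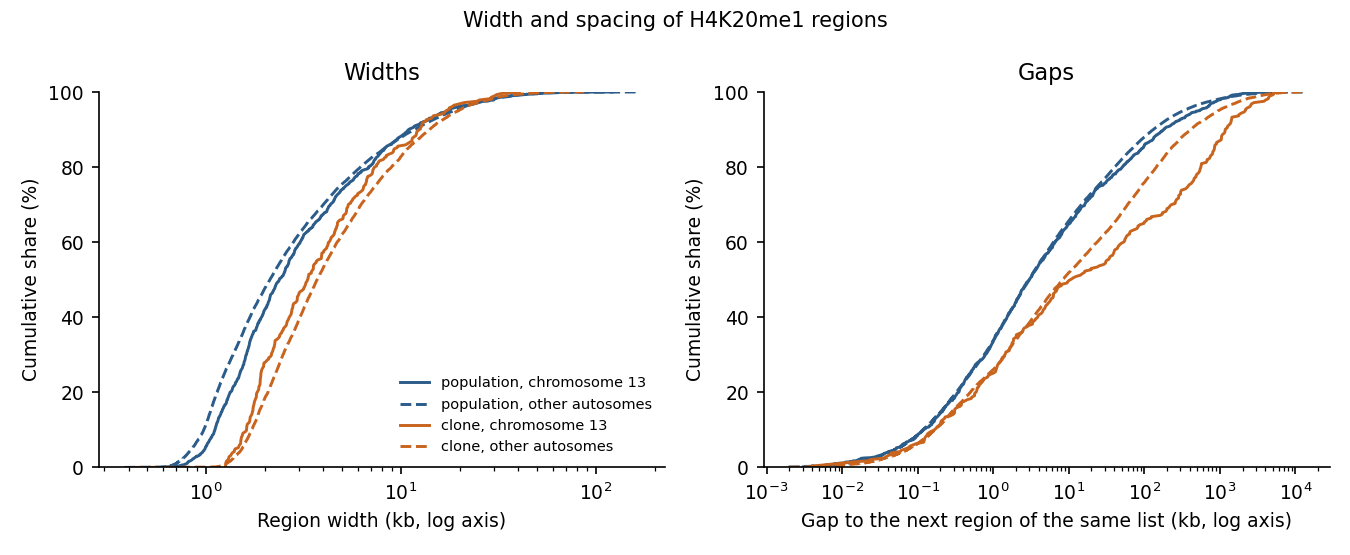
Cumulative share of regions by width (left) and of gaps between neighbouring regions of a list by length (right), both on log axes in kb, for the population (blue) and the clone (orange) on chromosome 13 (solid) and on the 18 other autosomes (dashed). The population gap curves lie on each other (medians 3.02 and 2.99 kb), while the clone curves separate in the upper part, with upper quartiles of 386.1 kb on chromosome 13 and 91.8 kb elsewhere.

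Some stretches were empty in both cultures. The longest gaps free of regions of either list were 3.71 Mb (chr13:25111891-28822147), 3.69 Mb (chr13:86185796-89872416), 2.66 Mb (chr13:78369735-81031355), 2.54 Mb (chr13:9763347-12301951) and 2.25 Mb (chr13:6551336-8804599). They were at the same time the 5 longest gaps of the population list, so the clone placed no region in any of them. The clone's own longest gaps were wider and held whole population regions without a counterpart. The clone gap of 5.72 Mb (chr13:76079901-81797407) held 33 such regions with 119.2 kb. Its gap of 5.10 Mb (chr13:3891737-8988369) held 15 with 52.0 kb, and its gap of 5.09 Mb (chr13:24932269-30021728) held 30 with 65.4 kb.

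The thinner marking in the clone extended along the whole chromosome and was not a single missing block. In the 11 segments of 10 Mb with at least 20 population regions, the clone overlapped between 6.19% and 22.0% of the population regions, with a median of 14.3%. Over the other autosomes 226 such segments had a median of 34.7%, and 51 of them were below 25%, as were all 11 of chromosome 13. The lowest share lay in the segment from 20 Mb to 30 Mb, where 6 of 97 population regions were overlapped and the population covered 284.3 kb against 32.7 kb in the clone. The segments from 40 Mb to 50 Mb and from 50 Mb to 60 Mb had the lowest ratios of population to clone base pairs of the first 12 segments, 2.82 and 2.94. There the population covered 929.5 and 776.9 kb and the clone 329.7 and 264.2 kb. The segment from 110 Mb to 120 Mb had a similar ratio of 2.95, with 13 of 59 population regions overlapped.

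At 1 Mb resolution, 97 of 121 bins held population sequence. Of these, 68 also held clone sequence and 29 (29.9%, exact interval 21.0 to 40.0%) did not, against 12.4% of such bins over the other autosomes. The share was 17.7% on chromosome 16 and 35.3% on the X chromosome, which was above that of chromosome 13. No bin of chromosome 13 held clone sequence alone. The 29 population-only bins contained 237 regions and 766.5 kb, or 12.0% of the population sequence, so most of the unmatched sequence lay in bins that the clone also marked. The bin from 9000001 to 10000000 held the most population sequence, 263.8 kb against 44.4 kb in the clone. Second came the bin from 94000001 to 95000000, with 223.6 against 6.46 kb, a ratio of 34.6. Among the 10 bins richest in population sequence, the bin from 36000001 to 37000000 was the only one without clone sequence: the population marked 154.0 kb there in 37 regions. Of the 10, the bin from 108000001 to 109000000 had the lowest ratio, 143.5 against 80.7 kb with 50.9 kb common. The bin from 104000001 to 105000000 had the largest common share of the population sequence, 62.9 of 145.1 kb (43.4%). The clone covered more than the population in 4 bins, and the largest excess was in the bin from 44000001 to 45000000, at 96.9 against 50.6 kb.

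**Figure D2:**
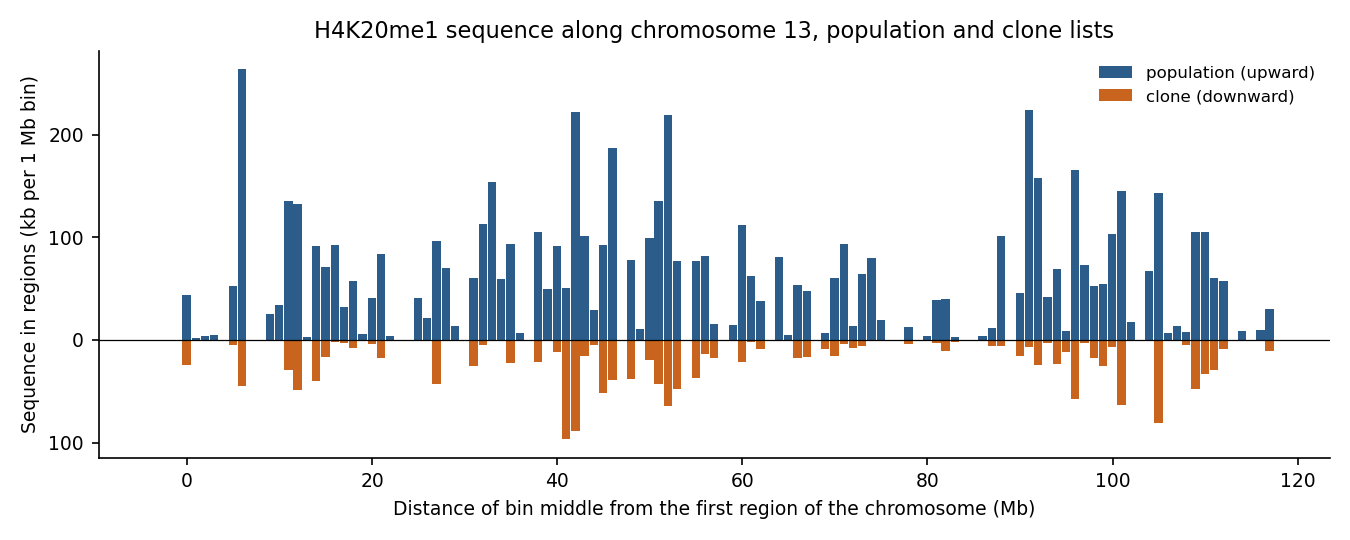
Kilobases of H4K20me1 sequence per 1 Mb bin along chromosome 13 in the population (blue, upward) and the clone (orange, downward), by the distance of the bin middle from the first region of the chromosome in Mb. Clone bars stand opposite 68 of the 97 population bars and exceed the opposite bar in 4 bins.

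Overlapped population regions were wider than unmatched ones. The 189 overlapped regions had a median width of 9739 bp and the 1078 unmatched ones a median of 2080.5 bp. Of the population regions between 1000 and 2000 bp, 12 of 462 were overlapped (2.60%, exact interval 1.35 to 4.49%), against 17.8% on the other autosomes. From 2000 to 5000 bp it was 34 of 406 (8.37%, 5.87 to 11.5%) against 35.7%, and from 5000 to 10000 bp 47 of 179 (26.3%, 19.97 to 33.3%) against 62.9%. In each of these 3 classes, and from 10000 to 20000 bp (57 of 102, 55.9%, against 78.4%), chromosome 13 had the lowest share of the 19 autosomes. From 20000 bp on, 37 of 48 regions were overlapped (77.1%, 62.7 to 87.97%), against 78.97% elsewhere, and chromosome 13 ranked 8 from the lowest. Below 1000 bp 2 of 70 regions were overlapped (2.86%, 0.35 to 9.94%), against 12.3% elsewhere, which ranked 4 from the lowest. Had each width class been overlapped at the share of the other autosomes, 466.5 regions (36.8%) would have been, against the 189 observed. The chromosome was chosen for the small share of its regions that the clone supplied, so a shortfall was likely beforehand. Nothing is read from it or from the ranks of the classes.

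**Figure D3:**
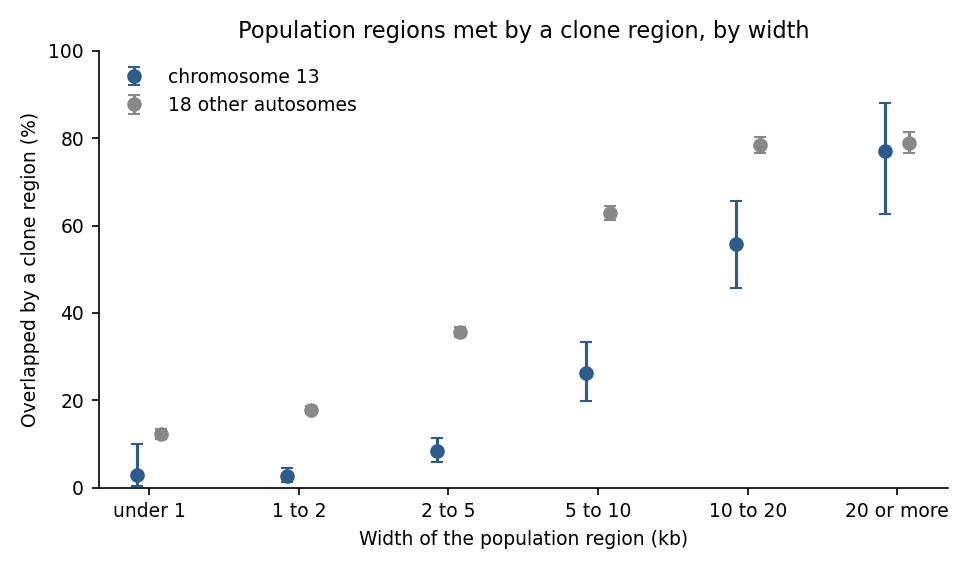
Share of population regions that shared at least 1 bp with a clone region, in percent, by width class in kb, on chromosome 13 (blue) and on the 18 other autosomes together (grey), with exact Clopper-Pearson 95% intervals for counting error. The points for chromosome 13 lie lower in each class up to 20 kb, at 26.3% against 62.9% from 5 to 10 kb, and the intervals overlap from 20 kb on, at 77.1% against 78.97%.

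Population regions of at least 20 kb that the clone met were covered over less of their length than on the other autosomes. Among the 37 overlapped regions of at least 20 kb the median share of base pairs in clone regions was 42.1% (quartiles 17.9 and 80.2%), against 88.7% over the other autosomes. In all 48 regions of this width, 38.1% of the base pairs were marked in the clone, the lowest of the 19 autosomes, where the others ranged from 42.98 to 73.2%. At least 50% of the region was covered in 18 of the 48 (37.5%, 23.95 to 52.6%), against 60.8% elsewhere. Counted from 10 kb on, 94 of 150 regions had any overlap (62.7%, 54.4 to 70.4%), against 78.6% elsewhere.

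The widest population regions show this directly. The widest spanned 121.5 kb (chr13:94851145-94972677) and met 1 clone region, which covered 2.25 kb or 1.85% of it. The region of 64.9 kb ranked 2 (chr13:30010915-30075803) and met 5 clone regions covering 61.9%. The region of 64.8 kb ranked 3 (chr13:43511255-43576079) and was covered to 17.9% by 3 clone regions. A region of 58.8 kb (chr13:99636881-99695640) was covered to 65.6%, and one of 50.5 kb (chr13:112229167-112279651) to 80.2% by a single clone region. In contrast, coverage was 3.57% for 53.7 kb (chr13:35856942-35910624), 6.38% for 50.3 kb (chr13:95559065-95609378) and 4.10% for 46.5 kb (chr13:49016715-49063187). The remaining 2 of the 10 widest were covered to 24.5% (chr13:14156624-14200379) and 13.4% (chr13:91601842-91644487). All 10 were met by the clone, and 3 of them were covered by more than 50%. Of the 11 regions of at least 20 kb with no overlap, the widest were 35.1 kb (chr13:31029350-31064416) and 31.9 kb (chr13:107780295-107812197), whose nearest clone regions were 392.9 and 729.2 kb away. Another of 30.4 kb (chr13:35918149-35948546) lay 16.1 kb from a clone region.

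The 10 widest clone regions ran from 19.9 to 40.5 kb. The widest (chr13:112238927-112279398, 40.5 kb) lay wholly inside the population region of 50.5 kb named above. Of the other 9, 6 also lay wholly in population sequence, among them 30.9 kb (chr13:51197192-51228119) and 28.8 kb (chr13:114379029-114407871). A further 33.1 kb (chr13:45063623-45096720) was covered to 95.4% and 29.0 kb (chr13:108650018-108679012) to 99.9%. The exception ranked 4 by width, 30.1 kb (chr13:44829063-44859202), which met no population region, the nearest being 0.79 kb away.

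Where 1 clone region met exactly 1 population region, the clone region was usually the narrower and lay inside. Chromosome 13 had 113 such pairs, in which the population region had a median width of 8616 bp and its clone partner one of 3670 bp. The clone region lay inside the population region in 94 pairs (83.2%), spanned it in 6, and crossed 1 border in the other 13. It was the wider of the pair in 10 (8.85%). Clone width divided by population width had a median of 0.59 (-0.76 on the log2 scale, with quartiles of -1.59 and -0.27), the lowest of the 19 autosomes. The 18 others together had a median ratio of 0.95 and 44.0% of clone regions inside. The ratio was smaller in pairs with a wider population region: 0.73 below 5000 bp (28 pairs), 0.61 from 5000 to 10000 bp (35 pairs) and 0.39 from 10000 bp on (50 pairs). The other autosomes had 1.04, 0.84 and 0.94 in these classes. The classes rest on the population width, the divisor of the ratio, so some fall with width was likely beforehand. The median offset was 966 bp between starts and 1157 bp between ends, and both borders agreed within 500 bp in 14 pairs (12.4%), against 32.0% elsewhere.

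**Figure D4:**
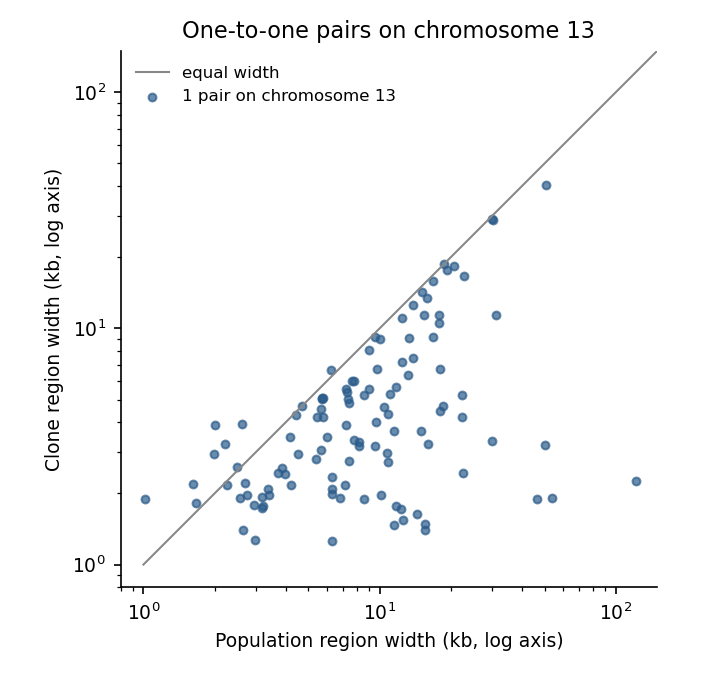
Width of the clone region against width of the population region, in kb on log axes, for the 113 pairs on chromosome 13 in which each region met only the other. The grey line marks equal width; 10 pairs lie above it and 103 below, and several population regions of 10 kb or more pair with clone regions of about 2 kb.

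Chromosomes 16 and X, which also had low overlapped shares, showed the same direction of pairing, to a smaller degree over all their pairs. On chromosome 16, where 21.3% of population regions were overlapped, the clone region lay inside in 67.9% of 106 pairs with a median width ratio of 0.70. On the X chromosome, with 18.3% overlapped, it lay inside in 58.2% of 91 pairs with a ratio of 0.84. On chromosome 11, which had the highest overlapped share, 47.0%, it lay inside in 32.3% of 471 pairs and the ratio was 1.00. In pairs with a population region from 5000 to 10000 bp, chromosome 16 had the smaller ratio, 0.54 (33 pairs) against 0.61 on chromosome 13. Below 5000 bp the ratio of chromosome 16 was 0.80 and from 10000 bp on 0.72, against 0.73 and 0.39. These differences were not tested.

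Most overlapped population regions met a single clone region, and the widest were often met by several. On chromosome 13, 137 population regions met 1 clone region, 30 met 2 and 22 met 3 or more, with at most 5. Those meeting 2 or more were 52 of the 189 overlapped (27.5%, exact interval 21.3 to 34.5%), against 16.1% on the other autosomes. Chromosome 16 had 28.2% and the X chromosome 23.2%. Of the 37 overlapped regions of at least 20 kb, 22 met 2 or more (59.5%, 42.1 to 75.2%), against 51.3% on the other autosomes. This was 61.3% of 31 regions on chromosome 16 and 61.5% of 13 on the X chromosome. On chromosome 13, 14 of the 37 met 3 or more. The 2 that met 5 were the region of 64.9 kb named above and one of 40.4 kb (chr13:17855770-17896126), of which clone regions covered 87.0%. In the other direction, 10 clone regions met 2 population regions and 3 met 3. Those meeting 2 or more were 13 of 284, against 1293 of 11303 on the other autosomes and 1325 of 11809 over all chromosomes. Chromosome 16 had 28 of 304 and the X chromosome 19 of 222.

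Regions gathered in clusters, which were described by joining population regions no more than 10000 bp apart into stretches. The 1267 population regions formed 447 stretches with a median span of 8.62 kb, and 189 of these were single regions. The largest number of regions in a stretch was 21, and 6 stretches spanned at least 100 kb. The clone regions formed 144 stretches, 80 of them single, with a median span of 6.73 kb. Clone regions lay at least partly within the span of 126 population stretches and left 321 untouched (71.8%, exact interval 67.4 to 75.9%), against 48.8% on the other autosomes and at most 65.7% on any one of them. The X chromosome had a similar untouched share, 72.8%. On chromosome 13 the untouched stretches held 2.63 Mb, or 41.3% of the population sequence.

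Up to 9 regions, stretches with more regions were touched more often, on chromosome 13 as elsewhere. The clone touched 31 of 189 single regions (16.4%), against 33.5% on the other autosomes. It touched 57 of 179 stretches of 2 to 4 regions (31.8%, against 59.7%) and 33 of 64 stretches of 5 to 9 (51.6%, against 75.2%). Of the 15 stretches with 10 or more regions it touched 5 (33.3%, exact interval 11.8 to 61.6%), against 72.2% of 324 elsewhere. That interval includes the share of the class before it. The 10 untouched dense stretches included some of the widest on the chromosome. Single regions were touched in 15.5% on chromosome 16 and in 15.5% on the X chromosome. In the same order, the shares were 42.5% and 36.8% for 2 to 4 regions and 56.25% and 45.9% for 5 to 9. For 10 or more regions they were 52.9% and 41.7%.

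Of the 10 widest population stretches 3 had no clone region. The widest, 147.5 kb with 3 regions (chr13:94828671-94976189), was 98.9% marked in the population and held 1 clone region of 2.25 kb. The next, 129.4 kb with 19 regions and 93.6 kb marked (chr13:45890698-46020106), had no clone region within 170.7 kb. The stretch ranked 3, 124.7 kb with 21 regions (chr13:44972468-45097175), had the largest shared part of these 10: 12 of its regions were overlapped and 74.7% of its marked sequence was shared. The stretch ranked 4, 113.8 kb with 18 regions (chr13:36176111-36289880), and that ranked 8, 93.3 kb with 13 regions (chr13:36071787-36165044), were both without a clone region. In those ranked 5 (chr13:9441905-9549256) and 6 (chr13:35856942-35964069), 1.94% and 1.998% of the marked sequence was shared. The others shared 26.2% (chr13:14147136-14245362), 61.1% (chr13:15557161-15647016) and 8.76% (chr13:97303496-97392515).

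Unmatched regions lay far from clone regions and followed one another in long runs. The median distance from an unmatched population region to the nearest clone region was 109.8 kb, against 27.6 kb on the other autosomes, and 98 of the 1078 (9.09%) were more than 1 Mb away, against 1.53%. On the X chromosome the median was 86.2 kb with 7.40% beyond 1 Mb, and on chromosome 16 it was 59.1 kb with 4.02%. Of the 1078 on chromosome 13, 19 lay within 1 kb of a clone region. Runs of 10 or more consecutive unmatched regions numbered 37 and held 765 of the 1078 (71.0%), against 38.7% on the other autosomes. Such runs held 60.3% on chromosome 16 and 59.7% on the X chromosome. A lower overlapped share by itself lengthens such runs. After an overlapped region the next was overlapped in 64 of 188 cases (34.0%), and after an unmatched one in 124 of 1078 (11.5%).

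The longest run counted 59 population regions over 2.16 Mb (chr13:35912573-38077501), with 266.9 kb marked, 7 regions of at least 10 kb and a widest region of 30.4 kb. It includes the stretches ranked 4 and 8 by span. The second run, of 36 regions over 1.82 Mb (chr13:12301952-14124882), was made of narrower regions, with a median of 1361 bp and none above 8.42 kb. The third, of 34 regions over 1.05 Mb (chr13:45721630-46771386), had a median of 3200.5 bp and 142.4 kb marked. The runs ranked 4 and 5, of 33 regions each, were sparse and extended over 4.31 Mb (chr13:65344251-69652779) and 4.89 Mb (chr13:76147257-81035583). Longer runs than the 59 of chromosome 13 occurred on chromosome 9 (108 regions), the X chromosome (89) and chromosome 16 (65). Among the 19 autosomes its longest run ranked 17 from the lowest.

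Most runs of overlapped regions were single regions, 87 of 125 (69.6%), against 48.1% on the other autosomes, 62.4% on chromosome 16 and 61.1% on the X chromosome. The longest counted 11 regions over 74.1 kb (chr13:45023078-45097175), in which 62.5 of 65.6 kb was shared. Runs of 5 lay at chr13:15557161-15602045, within 44.9 kb, and at chr13:56183957-58229768, spread over 2.05 Mb. Among the runs of 4 were those at chr13:60707290-60717987 and chr13:95022065-95157460.

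The longest run of overlapped regions lay beside the place with the most clone-only sequence. The clone's widest stretch, 112.8 kb with 16 regions and 93.9 kb marked (chr13:44829063-44941894), shared 21.2% of its marked sequence with the population. Its second stretch, 97.8 kb with 11 regions (chr13:44998941-45096720), shared 92.5%. Between the outer ends of both (267.7 kb) the clone marked 174.2 kb, or 11.1% of all its sequence on the chromosome, and the population 131.8 kb, or 2.07% of its own. Of these, 92.3 kb was common.

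**Figure D5:**
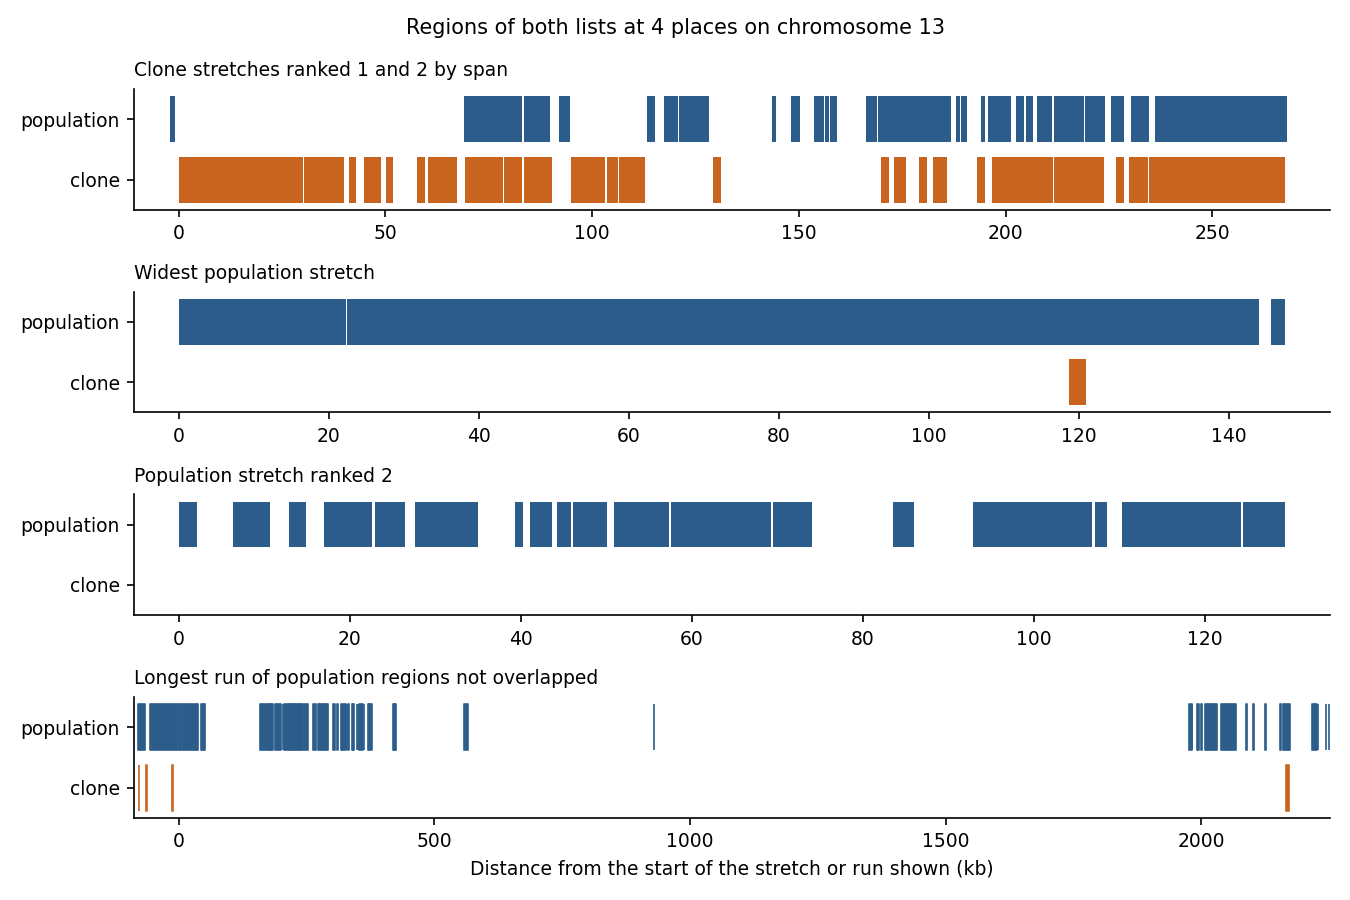
Regions of the population (blue, upper row) and the clone (orange, lower row) at 4 places on chromosome 13, drawn to scale by distance in kb from the start of each place. From the top are the 2 widest clone stretches (267.7 kb), the widest population stretch with a clone region of 2.25 kb in it, the second population stretch with no clone region, and the run of 59 unmatched population regions over 2.16 Mb, where narrow regions have a thin outline so that each can be seen.

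Clone regions without a population counterpart were few and gathered. They numbered 24, with a median width of 2665 bp and 125.4 kb in total, and the farthest lay 52.3 kb from a population region. Grouped by distances of at most 100 kb, 12 of them with 75.5 kb lay between 44829063 and 44960130, and 4 with 29.0 kb between 108565320 and 108595951. These 2 places held 16 of the 24 regions and 83.3% of the sequence. The 8 regions of at least 5 kb were all there. Apart from the region of 30.1 kb named above they were 11.9 kb (chr13:108584026-108595951), 9.63 kb (chr13:44859408-44869034), 8.69 kb (chr13:108568324-108577010), 7.11 kb (chr13:44889322-44896431), 6.67 kb (chr13:108577320-108583989), 6.64 kb (chr13:44925460-44932103) and 6.41 kb (chr13:44935489-44941894).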

How the data were processed

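The 4 ChIP-seq libraries, 1 per group, were amplified for 12 cycles and read for 50 cycles, per the labels' protocols. CASAVA 1.8.1, Bowtie and mm9 are named, without roles, in the submitters' processing notes. How peaks were called, and whether against the serum libraries, is not given in the sources used here. Per culture the authors deposited 1 list of regions (chromosome, start and end, no header or score), and the tag FDR5 in the names is not explained there. Starts were read as counted from 0 and are printed counted from 1.

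The chromosome, the measures and the settings were chosen with earlier results of these data known. Regions named are the widest regions and stretches, longest gaps and runs, richest bins, and wide unmatched regions. Overlap means at least 1 bp. Shares have exact Clopper-Pearson 95% intervals. Bins and segments were counted from position 1 of the chromosome, and a region belongs to the segment of its midpoint. Python 3.11.15, numpy 2.4.6, scipy 1.17.1 and matplotlib 3.10.9 were used, and the overlap code was tested on simulated data.

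The gene table describes GRCm38.p6, and 121 population regions on chromosome 7 ended beyond its last gene there, so coordinates were not matched to genes. Alternatives joined regions, set a minimum width, shortened the lists, changed the overlap rule, or changed the joining distance or bin size.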

Additional observations from a re-analysis of the deposited data

How the results depend on the processing

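The clone list was the smaller under every setting run, and chromosome 13 had the lowest share of overlapped population regions of the 19 autosomes under the main and all 8 other settings of lists and overlap. The rule that chose the chromosome rests on the same lists, so nothing is read from this rank. Of 67 recomputed values, 35 stayed within the limit (the exact interval for shares, 1.5 times otherwise), and 32 moved beyond it. The tally takes each median width alone, but their order, larger in the clone as deposited, reversed under 2 settings, joining within 10000 bp and the shortened population list. The limits are unlike, so the tally does not rank results. Joining within 1000 bp left 842 population regions, 18.6% of them overlapped and a longest unmatched run of 36. Joining within 10000 bp left 447 population and 144 clone regions with medians of 8616 and 6729.5 bp, 28.2% and 96.5% overlapped, and a run of 17. A minimum of 2000 bp left 735 population regions with a median of 4516 bp, 20.1% overlapped, 66.3% of stretches untouched and a run of 35. Keeping the population regions of 2636 bp or more left about as many as the clone list has over all chromosomes. On chromosome 13 this left 583 with a median of 5739 bp and 28.6% overlapped, against 284 clone regions with 87.7% overlapped. There 57.8% of stretches were untouched and the longest unmatched run was 28. The wider 50% of each list left 696 and 128 regions with medians of 4700.5 and 6854.5 bp. Requiring 50% of a region to be covered gave 9.79% of population regions, and reciprocal overlap gave 6.87% of population and 30.6% of clone regions. Stretches joined within 20000 and 50000 bp were untouched in 65.9% and 60.6%. Bins of 500000 and 2000000 bp gave 59 and 13 population-only bins. Beyond what each setting itself does, the cause was not tested. The ratio of covered base pairs stayed between 3.37 and 4.55 under the list settings. The unknown depth limits every statement on regions that one list lacks. No paired analysis was possible because the groups hold 1 library apiece.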

Other observations

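In most stretches of 2 or more population regions that the clone touched, the widest region was among those overlapped. Chromosome 13 had 95 such stretches with 455 population regions, of which 158 (34.7%) were overlapped, and the widest region of the stretch was overlapped in 86 (90.5%). In 59 stretches (62.1%) a single region was overlapped, and in 52 of these it was the widest. Over the other autosomes the widest was overlapped in 89.8% of 3299 stretches, while a single region was overlapped in 37.9%.

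Clone regions that lay inside a population region of at least 5 kb had no preferred side. In the 78 such pairs on chromosome 13 the middle of the clone region stood at a median of 48.9% of the population region's length (quartiles 37.7 and 65.1%). The nearer border was a median of 675.5 bp away and the farther 4086.5 bp, against 316 and 2050 bp in 1506 pairs on the other autosomes. These measures were chosen after other values of the pairs had been seen.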
